A study of Mus musculus with 3 samples.

Results

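The regions described here are the 235 of 543367 compared regions that held 5 or more reads in input chromatin, the sonicated, crosslinked chromatin sequenced without precipitation. Of these, 66 held more than 50 input reads and are called repeat-like here, a name for their read count and not for their sequence; the other 169 held 5 to 50. They were chosen from the compared regions by the input count alone, so input levels and every ratio to input describe the choice. The reads of the precipitated libraries were not used in that step. They did decide which regions were compared, because every compared region was called as a peak in at least 1 precipitated library. This favours ratios to input above 1, and a region called in 1 library alone tends to be higher there. Input reads were otherwise sparse: 508762 regions held 0, 27666 held 1, 6354 held 2, 266 held 3 and 84 held 4. At the threshold, the 84 regions with 4 input reads held medians of 8 Ets-1 virus reads and 5.5 control virus reads, and the 19 with 5 held a median of 8 with each. At the limit of the repeat-like regions, the region on each side had 50 input reads (near Vmn1r-ps151) and 51 (near Gm26917).

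The study measured where the transcription factor Ets-1 sits on chromatin in Min6 cells, a mouse insulinoma line that makes insulin and serves as a β-cell model. All cells were grown in 25 mM glucose. A first group received the control adenovirus Ad-GFP for 24 h and a second the adenovirus Ad-Ets-1, which overexpresses Ets-1; chromatin of each was fixed in 1% formaldehyde for 10 min and precipitated with an antibody against Ets-1. The third group is the input, for which the labels name no virus. Each group held 1 library of this 1 cell line, so the differences below lack any check by replicates and carry no p-values. Library totals were 1938473 reads (Ets-1 virus), 1775757 (control virus) and 3937473 (input). Reads are given in the order Ets-1 virus, control virus, input; a virus ratio is the scaled reads of the Ets-1 virus library over those of the control virus library, and its exact binomial 95% interval covers counting error only, counted on fragments of 2 reads. PCR copies are not independent molecules, so true intervals may be wider.

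Input chromatin is used in ChIP-seq as the measure of how many reads a place gives without any antibody. Tandem repeats at centromeres and the ribosomal RNA genes exist in many more copies in the cell than in the assembled genome, so reads from all copies can pile up on the few that were assembled. Open promoters also tend to yield more sonicated fragments than closed chromatin. Ets-1, like other ETS factors, binds around the core GGAA, which reads TTCC on the other strand.

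The sequence of each member was read from the GRCm38 assembly, the build that mm10 names, for the 211 members on chromosomes 1 to 19 and X; the other 24 lie on unplaced scaffolds and have no sequence features here. Stretches of 160 bases from 7 members give an example each of the satellite and of 2 tandem repeats, and 4 single-copy members with high or lower input counts. They were chosen after the values were seen, lie outside annotated UTRs and are written 5′ to 3′ on the plus strand.
Satellite member near Gm10718, chr9:3023498-3023657: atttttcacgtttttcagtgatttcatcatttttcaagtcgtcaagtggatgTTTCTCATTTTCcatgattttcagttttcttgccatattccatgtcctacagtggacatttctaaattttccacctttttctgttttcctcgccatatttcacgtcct
GGAAT repeat member near 4930517M08Rik, chr17:4626289-4626448: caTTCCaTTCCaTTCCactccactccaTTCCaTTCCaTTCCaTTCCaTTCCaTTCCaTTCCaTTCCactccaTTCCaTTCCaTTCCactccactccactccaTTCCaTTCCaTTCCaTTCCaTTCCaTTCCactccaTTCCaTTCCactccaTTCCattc
TGTGC repeat member in 2700054A10Rik, chr17:13551911-13552070: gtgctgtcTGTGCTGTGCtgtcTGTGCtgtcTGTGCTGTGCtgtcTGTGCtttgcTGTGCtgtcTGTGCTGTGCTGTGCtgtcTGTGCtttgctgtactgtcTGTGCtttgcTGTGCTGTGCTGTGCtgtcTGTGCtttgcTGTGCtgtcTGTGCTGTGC
Single-copy member at Fam227b, chr2:126147681-126147840: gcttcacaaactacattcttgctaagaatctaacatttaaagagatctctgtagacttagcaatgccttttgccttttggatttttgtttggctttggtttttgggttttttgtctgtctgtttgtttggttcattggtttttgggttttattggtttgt
Single-copy member at the Brsk2 promoter, chr7:141950130-141950289: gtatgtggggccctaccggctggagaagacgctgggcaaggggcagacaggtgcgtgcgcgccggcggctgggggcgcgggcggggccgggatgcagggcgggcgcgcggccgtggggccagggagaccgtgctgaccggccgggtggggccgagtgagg
Single-copy member at the Pif1 promoter, chr9:65587879-65588038: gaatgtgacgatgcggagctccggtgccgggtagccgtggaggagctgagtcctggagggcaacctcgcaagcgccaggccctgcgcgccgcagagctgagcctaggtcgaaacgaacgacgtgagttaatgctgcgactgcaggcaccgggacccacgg
Single-copy member at the Ins2 promoter, chr7:142679854-142680013: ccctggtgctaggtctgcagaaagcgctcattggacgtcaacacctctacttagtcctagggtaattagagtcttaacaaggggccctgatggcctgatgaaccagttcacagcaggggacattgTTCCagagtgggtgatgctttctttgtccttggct
Capitals mark a 12-base word, GAAAATGAGAAA or its reverse complement, in the satellite stretch; the unit TGTGC or its reverse complement in the stretch from 2700054A10Rik; and the ETS core GGAA or TTCC in the others. The 12-base word was in 33 of 33 satellite members and in 0.0459% of the 543014 regions with sequence, and the GGAA core in 92.9% of those regions. The stretch with the GGAAT unit held the core 23 times. The stretches from Fam227b, Brsk2 and Pif1 held it 0 times and that from Ins2 held it 1 time.

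Members were sorted into classes by position and sequence, without their reads. Satellite members, 33 in number, are those in the first assembled bases of chromosome 9 (chr9:2999930-3038352 holds 22 members) and those that share 10 or more 31-base words with them. Ribosomal DNA members are 3 regions at the assembled copy on chromosome 17 (chr17:39843106-39848633, near Gm26917 and Gm42418) and 1 region on chromosome 6 with shared words. Runs of 3 or more perfect copies were searched on either strand and in any frame: 20 members held the unit GGAAT and 4 members the unit TGTGC. Another 13 had more than 10% of their bases in other short tandem repeats. Among members outside these classes, 105 had at least 80% of their 31-base words at 1 place in the genome, and these are called single-copy. The remaining 32 were repeated in other ways. With members of the repeat classes counted too, 117 of the 211 reached that 80%. None of the 211 shared a 31-base word with the mitochondrial genome.

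**Figure D1:**
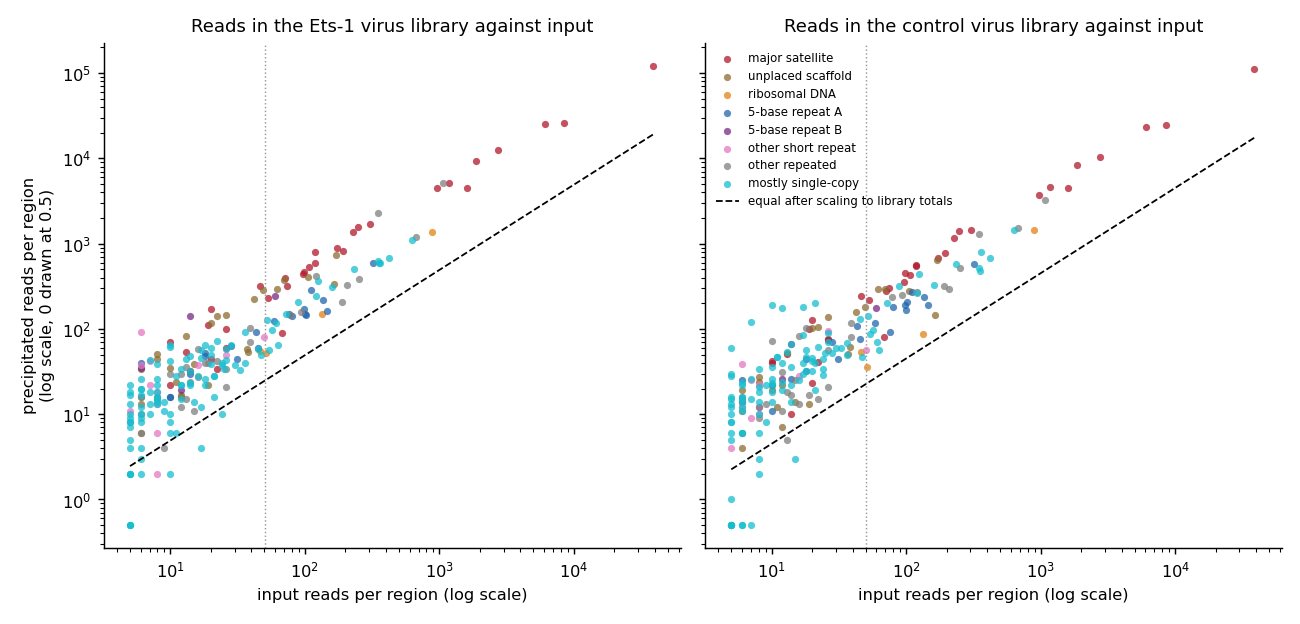
Reads in the Ets-1 virus library (left) and the control virus library (right) against input reads for the 235 members, on log axes, coloured by sequence class; 5-base repeat A is the GGAAT unit and 5-base repeat B the TGTGC unit. The dashed line is equality after scaling and the dotted line the limit of 50 input reads. Satellite members reach 38590 input reads, and most members of every class lie above the dashed line in both libraries. All were called as peaks in a precipitated library, which favours places above that line.

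The members held 1.91% of all input reads, and 12.8% and 12.7% of the precipitated reads. Satellite DNA made up 84.7% of the members' input reads, 88.9% of their Ets-1 virus reads and 88.4% of their control virus reads. A single region on chromosome 2 (chr2:98666109-98667430, near Gm10800) held 122344, 110707 and 38590 reads. The 4 members of that locus (chr2:98662102-98667430, Gm10800 and Gm10801) held 41720 input reads and the 22 on chromosome 9 held 17692. All 33 satellite members together held 220837, 199535 and 63641 reads, or 7.05 and 6.95 times the scaled input. The mouse major satellite, which these members resemble in the word above, is the tandem repeat of the pericentromeric chromatin. Across the 33 members the ratio to input ran from 2.69 to 17.3 (Ets-1 virus) and from 1.58 to 14.0 (control virus). The virus ratio of their summed reads was 1.01 (1.005 to 1.02). Satellite members held a median of 22.8 GGAA cores per kb, against a median of 9.04 over all regions with sequence.

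The other satellite members with more than 50 input reads lay near Gm10718, Gm10722, Gm11168, Gm10717, Gm17535, Gm26870, Gm10720, Gm10719 and Gm10715 on chromosome 9, near Gm33838 farther along that chromosome (chr9:35305153-35305675; 9236, 8319 and 1872 reads), near Gm9075 and Gm47987 on chromosome 12 and near Gm21738 on chromosome 14 (chr14:19415609-19419682; 4436, 3713 and 963 reads). The lowest ratios to input among them, 2.69 and 2.64, were those of the Gm47987 region. Among 16 listed gene names known for excess signal in mouse sequencing, 14 had a member, with 28 members in all, against 0.430% of all gene names in the table; 10 of the 14 lie at the start of chromosome 9 and 2 at the chromosome 2 locus. On 1 further region of the chromosome 2 locus (chr2:98664901-98665343), which is repeated but outside the satellite class, the libraries held 2268, 1281 and 349 reads, a virus ratio of 1.62 (1.47 to 1.79).

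Mouse chromosomes carry the centromere at one end, and the assembly starts just beyond it, at base 3000001 on most chromosomes. Within 500 kb of that first assembled base lay 34 of the 211 members (16.1%), against 0.395% of all compared regions. They came from 6 chromosomes, with 23 on chromosome 9, 6 on chromosome 11, 2 on chromosome 16 and 1 each on chromosomes 6, 12 and 18. Of these 34, 24 were satellite members, a class that was partly defined by position on chromosome 9, and 4 were single-copy. Within the last 500 kb of assembled sequence lay 5 members (2.37%), against 0.359% of all regions.

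A scaffold that the assembly does not place on a chromosome, JH584304.1, held 23 members between positions 289 and 113493, all nearest to AC149090.1, with 3500, 2632 and 893 reads. Their summed reads were 7.96 and 6.54 times the input. The virus ratio was 1.22, and over all 24 scaffold members 1.22 (1.13 to 1.30). The region with the largest difference among the 5 repeat-like ones (JH584304.1:59187-61070) held 341, 147 and 164 reads, a virus ratio of 2.13 (1.60 to 2.82). Those at 68375 and 78931 held 729, 646 and 169 reads and 295, 291 and 62 reads, with ratios of 1.03 and 0.929 whose intervals span 1. The libraries differed beyond counting error at some members of this scaffold and not detectably at others.

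The 4 ribosomal DNA members stood lower over the input than any other class. The region over the ribosomal RNA pseudogene copy near Gm42418 (chr17:39846380-39848633) held 1375, 1458 and 885 reads, 3.16 and 3.65 times the input. The 2 regions near Gm26917 held 150, 88 and 134 reads and 52, 36 and 51 reads, and the region on chromosome 6 near Gm2651 held 55, 54 and 46. Summed over the class, scaled reads were 2.97 and 3.25 times the input, and the virus ratio was 0.914 (0.829 to 1.01), an interval that spans 1.

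**Figure D2:**
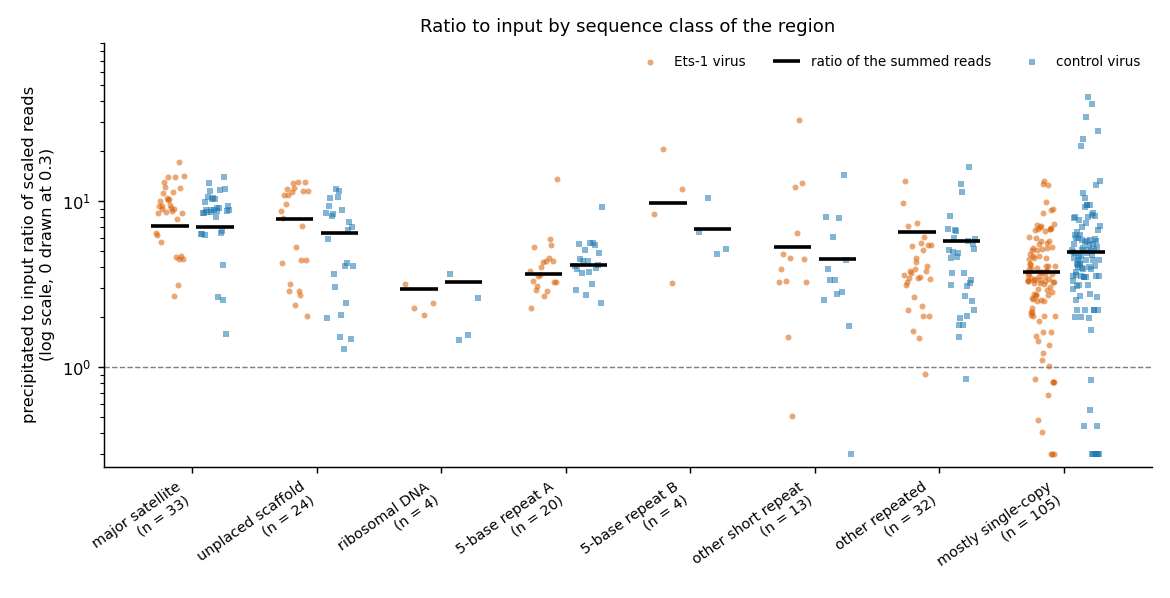
Precipitated to input ratio of scaled reads for each member, by sequence class, on a log axis; circles are the Ets-1 virus library, squares the control virus library, and bars the ratio of summed reads. The bars run from 2.97 and 3.25 for ribosomal DNA to 9.74 for 5-base repeat B in the Ets-1 virus library and 6.95 for the satellite in the control virus library, and the single-copy class spreads most widely, from 0 to 42.6 times the input.

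Runs of the GGAAT unit, which contains the ETS core and is also known as the unit of human satellites 2 and 3, occurred in 37 compared regions. Of these, 20 (54.1%) were members, against 0.0389% of all regions with sequence. The units GGAAT and TGTGC were not among the planned sequence features, so this share only describes the members. The 20 members held 1448 input reads and the other 17 regions with the run held 5 together. The longest run lay in a region on chromosome 17 (chr17:4626109-4626599, near 4930517M08Rik) with 593, 580 and 318 reads and 280 bases in such runs. The other 9 repeat-like ones lay near Dpp9, Gm45063, Olfr855, D130079A08Rik, Tox3, 4933427E13Rik, Gm17501, Gm24947 and Gm13580, with 59 to 146 input reads. The 10 with fewer input reads included regions near Gm14940 (59, 76 and 45 reads), Gm42826 (92, 108 and 43), Bbx (44, 44 and 31) and Gm6216 (63, 71 and 28). They came from 14 chromosomes, and 18 of the 20 were at least 400 and under 500 bp wide.

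GGAAT members held a median of 37.0 cores per kb, the most of any class, and up to 137 per kb. Their summed reads stood at 3.66 and 4.13 times the input, which is below the satellite members and near the single-copy ones. The virus ratio was 0.886 (0.820 to 0.956). Itga11, an integrin subunit gene, was nearest to the member that stood highest over the input, at 13.5 and 9.24 times, with 40, 25 and 6 reads.

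The TGTGC unit ran in 63 regions, of which 4 (6.35%) were members, so that most regions with this run were not members. A pair lies side by side on chromosome 17 (chr17:13550585-13553155, both in intron 2 of 2700054A10Rik, the first nearest to Gm26375) with 141, 66 and 14 reads and 246, 177 and 60 reads. The others lay near Gm22534 on chromosome 11 (19, 26 and 12 reads) and near Gm5626 on chromosome 13 (35, 14 and 6 reads). Summed reads stood at 9.74 and 6.82 times the input, with a virus ratio of 1.43 (1.16 to 1.78). In the first of the pair the ratio was 1.96 (1.29 to 3.08), and in the other 1.27 with an interval from 0.956 to 1.68. These members held a median of 0 GGAA cores per kb. The 13 members with other short tandem repeats held 419, 324 and 160 reads together, a virus ratio of 1.19 (0.957 to 1.45) whose interval spans 1.

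**Figure D3:**
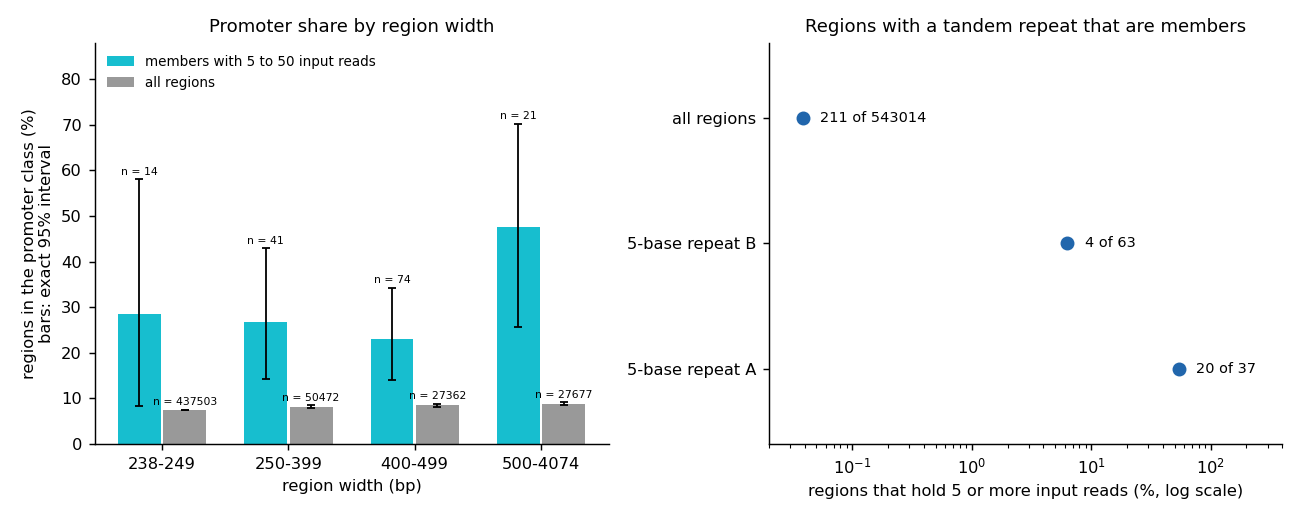
Left, the share of regions in the deposited promoter class by region width, for members with 5 to 50 input reads and for all regions, with exact 95% intervals. Right, the share of regions with a run of each tandem repeat that held 5 or more input reads, on a log axis; the GGAAT unit (5-base repeat A) stands at 20 of 37 and all regions at 211 of 543014.

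Of the 105 single-copy members, 16 were repeat-like. The highest was at Fam227b on chromosome 2 (chr2:126147681-126148141, promoter class) with 1114, 1435 and 630 reads, and 97.2% of its 31-base words occur at 1 place. Another 3 lay around Brsk2, an AMPK-related kinase gene, within 50 kb on chromosome 7: at a promoter (chr7:141949930-141950370; 626, 518 and 347 reads), at a 3′ UTR (chr7:141987646-141988095; 686, 670 and 421) and at another annotated start (chr7:141998430-141998887; 586, 472 and 356). All words of these 3 regions occur at 1 place. The virus ratios were 1.11, 0.938 and 1.14, and all 3 intervals span 1. The first of them is the most CpG-rich of the repeat-like members, with 16.3 CpG per 100 bases and 82.1% GC.

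At Ybx3, which encodes a cold-shock protein, the region held 591, 805 and 362 reads, a virus ratio of 0.673 (0.577 to 0.784). Exon 54 of 62 of Atm, the DNA damage kinase gene, held 369, 440 and 124 reads. Mdc1, whose product recruits repair factors to DNA breaks, had a region with 308, 326 and 160 reads. Sepsecs, an enzyme gene of selenocysteine synthesis, had a region with 511, 578 and 233 in intron 8. The remaining repeat-like single-copy members lay near Gm24877, 4933417O13Rik (within intron 15 of the potassium channel gene Kcnq1), Izumo1, Gm5466, Prnd, Gm22567, Gm22347 and Rin2, with 52 to 120 input reads. Summed over the 16, reads stood at 3.72 and 4.49 times the input, at a virus ratio of 0.829 (0.789 to 0.872).

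The 9 repeat-like members repeated in other ways include the intron of the acetyl-CoA carboxylase gene Acacb (chr5:114172900-114173361) with 1198, 1532 and 674 reads, a virus ratio of 0.716 (0.643 to 0.798). By contrast, the region near Gm44436 on chromosome 6 (chr6:103648969-103649429) held 5153, 3286 and 1068 reads, a virus ratio of 1.44 (1.35 to 1.53), and that near Pak3 on the X chromosome 420, 268 and 121 reads, also 1.44 (1.15 to 1.80). The others lay near Fam213b, Gm28502, Gm25352, Gm26461 and in the 3′ UTR of Lars2, which encodes mitochondrial leucyl-tRNA synthetase (146, 236 and 78 reads; ratio 0.567, 0.417 to 0.765). Among repeat-like members as a whole the ratios thus lay on both sides of 1: 13 intervals lay above it, 16 below it and the rest spanned it, and the ratio of their summed reads was 1.01 (1.005 to 1.02).

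Within 50 kb of a single-copy member lay a median of 14 other listed regions that were not members, which by the choice of members hold at most 4 input reads. Their mean was 0.126 input reads, against 0.0764 over all regions that were not members. Members also lay next to each other, as at Brsk2, Hoxd13, Irs1 and Dnmt3a and at a locus on chromosome 11 (chr11:3190420-3199943; 4 members, 64, 111 and 73 reads) with Sfi1, Gm12735 and Eif4enif1. Widths were not those of a typical listed region: 71.9% of the 235 members were 400 bp or wider, against 10.1% of all regions, and 32.8% were 430 to 470 bp wide, against 2.18%. A wide region collects more reads, and the choice of members took no account of width. The members held a median of 39.9 input reads per kb, with the lowest at 4.77.

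Promoters made up 24.9% (18.5 to 32.1) of the 169 members with 5 to 50 input reads, against 7.69% of all regions. Among those at least 400 and under 500 bp wide with sequence, 17 of 74 were in the promoter class (23.0%, 14.0 to 34.2), against 8.55% of all regions of that width. The members' share was above that of all regions in each of the 4 width classes. Of the 89 single-copy ones, 29 were in the promoter class, 26 in introns, 21 between genes and 11 in exons. The 29 promoter members had a median of 2.75 CpG per 100 bases and the 60 elsewhere 0.809, against 0.42 over all regions with sequence. Their precipitated reads stood alike over the input: 3.72 and 6.09 times in the promoter members and 3.82 and 6.17 times elsewhere.

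Exons held 7.69% (4.16 to 12.8) of the 169 members with 5 to 50 input reads, against 2.49% of all regions. Of these, 1 lay in exon 5 of 8 of Ets1, the gene of the factor that the Ad-Ets-1 virus overexpresses (chr9:32733941-32734330), although the files give Gm27240 as its nearest gene. It held 22, 14 and 8 reads, 5.59 and 3.88 times the input, at a virus ratio of 1.44 (0.510 to 4.38), and was called in both lists. All its 31-base words occur at 1 place in the genome. The annotated exon starts at base 32733940, 1 bp before the region, while the end of the region lies 142 bp from the nearest annotated exon end. The other region of Ets1 with input reads lies in exon 6 (chr9:32738099-32738347) and held 9, 4 and 4 reads, just below the threshold. It starts at the first base of that exon and ends 12 bp from the nearest annotated exon end. The remaining 24 regions that the table places in introns and exons of Ets1 held 0 input reads, among them that in exon 7 with 4, 12 and 0 reads. Of the 13497 compared regions in the exon class, 294 (2.18%) started within 5 bp of an annotated exon start. Among the 26 of them with 3 or more input reads there were 2, and these are the 2 in Ets1; they were singled out after their values were seen. In neither was a difference between the viruses detectable at this depth.

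Several members lay at genes tied to the β cell. Of 23 listed genes of β-cell identity, 3 had a member (Ins2, Mafa and Iapp), and of 15 genes of glucose sensing, 2 (Mlxipl and Txnip), to be read against the same 0.430% of all 44193 gene names. Irs1 alone had members among 17 insulin signalling genes. No member lay nearest to any of 13 granule and prohormone genes, 10 immediate early and stress genes, 8 abundant housekeeping genes, 53 histone genes or 17 Ets family genes in the table, but a gene that a member lies within is not always the nearest one by start site, and 1 member lay within Ets1 itself. Ins2, an insulin gene, held 28, 19 and 21 reads at its promoter, and Mafa, an activator of insulin transcription, 39, 32 and 20. At both, the interval of the virus ratio spans 1.

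Irs1, an adaptor of the insulin receptor, had members at its promoter (chr1:82289782-82290494) with 64, 57 and 18 reads and in exon 1 (chr1:82288333-82288954) with 62, 22 and 10. Only the latter differed between the viruses beyond counting error, at 2.58 (1.26 to 5.69). Mlxipl, the glucose-responsive factor ChREBP, held 65, 36 and 10 reads over 1707 bp, a virus ratio of 1.65 (0.919 to 3.17). The member nearest to Iapp, the gene of the amylin hormone, lies 6622 bp from its start in intron 1 of the transporter gene Slco1a5; this region of 1334 bp (chr6:142305069-142306402) held 39, 3 and 8 reads, a virus ratio of 11.9 (2.23 to 80.8). Its control virus reads were 0.832 times the input. Txnip went the other way, with 6, 47 and 11 reads and a ratio of 0.117 (0.0221 to 0.377). The Iapp region was called in the Ets-1 virus list alone and the Txnip region in the control virus list alone. At each, the call and the direction of the ratio thus rest on the same reads.

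**Figure D4:**
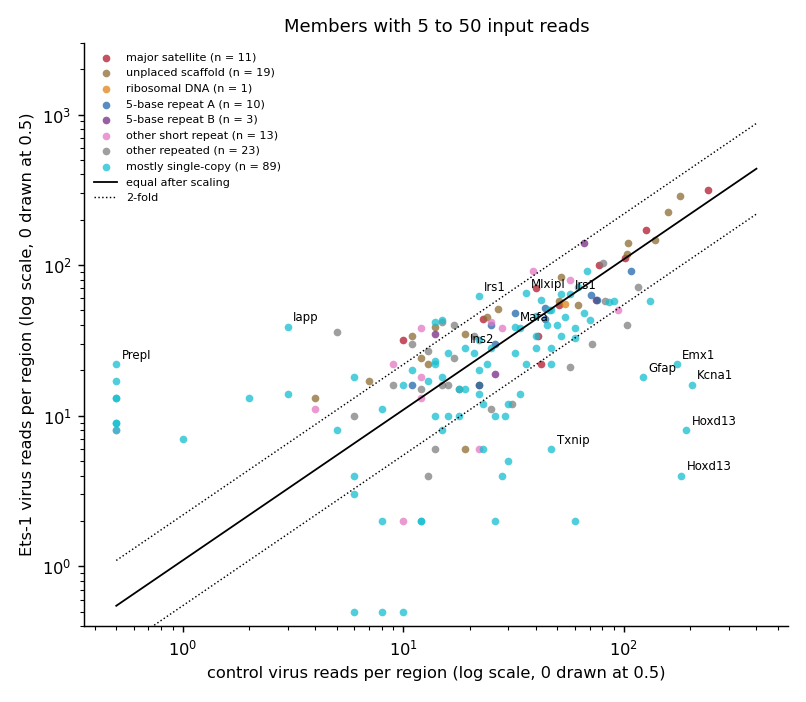
Ets-1 virus reads against control virus reads, on log axes, for the 169 members with 5 to 50 input reads, coloured by sequence class, with equality after scaling (solid) and 2-fold differences (dotted). The satellite member with most reads holds 315 and 242 and lies near the solid line, and single-copy members such as Hoxd13, Kcna1, Emx1 and Gfap lie far to the right of it, with 122 to 204 control virus reads.

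Between the precipitated libraries, the 169 members with 5 to 50 input reads held 6417 and 6810 reads, a virus ratio of 0.863 (0.822 to 0.905), while the median of their ratios was 1.02. Over all 543367 regions the ratio of summed reads was 0.781 (0.777 to 0.783). Among the 161 with 10 or more precipitated reads, 25 were 2-fold or more higher with the Ets-1 virus, which is 15.5%, against 36.7% of the 2794 compared regions with that many reads. Conversely, 35 (21.7%) were 2-fold or more lower, against 28.4% of those regions. The intervals of 12 members lay above 1 and those of 25 below it. The regions set beside them were shallower: the 2567 that were not members held 16948 and 13704 reads in all. Of these, 259 held 0 Ets-1 virus reads and 443 held 0 control virus reads. Near 10 reads, counting error alone passes 2-fold more often, so these shares do not compare the sets at equal depth. The 66 repeat-like members had 1 that was 2-fold or more higher and 0 lower.

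Among members with 5 to 50 input reads, the single-copy class had the lowest summed ratio, 0.616 (0.573 to 0.668), with a median of 0.763, and the 23 repeated in other ways had 0.807 (0.689 to 0.926). The lowest single-copy ratios included regions with many control virus reads. Hoxd13, a homeobox gene of the limb and tail, had a pair of them on chromosome 2 (chr2:74668786-74669185 and chr2:74669785-74670254) with 4, 182 and 17 reads and 8, 192 and 10. These 2 stood at 23.7 and 42.6 times the input in the control virus library and at 0.478 and 1.63 times in the Ets-1 virus library. Exon 2 of Kcna1, a voltage-gated potassium channel gene of neurons, held 16, 204 and 21 reads. Emx1, a homeobox gene of the forebrain, held 22, 174 and 12 at its promoter, and exon 6 of Gfap, the filament gene of astrocytes, 18, 122 and 7. The ratios of these 5, 0.0201 to 0.135, all have intervals below 1. All 5 were called in the control virus list and not in the Ets-1 virus list. They entered the comparison only through that call, so the call and the low ratio rest on the same control virus reads.

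Low ratios at lower counts lay at Mstn, the myostatin gene (2, 26 and 10 reads), and in exon 38 of 66 of the fibrillin gene Fbn1 (2, 60 and 5). Rnf2, a Polycomb ubiquitin ligase gene, held 4, 28 and 5. These regions were named from the 10 lowest ratios, so their direction follows from that choice. The Mstn region and the first Dnmt3a region below were called in the control virus list alone, so call and ratio rest on the same reads. Dnmt1, a DNA methyltransferase gene, held 5, 30 and 5 at its promoter, a ratio of 0.153 (0.0340 to 0.648). Dnmt3a, another, held 22, 47 and 18 reads in 1 promoter region, at 0.429 (0.186 to 0.890), and 8, 15 and 6 in the next, at 0.489 with an interval from 0.101 to 1.71 that spans 1. In exon 3 of Tet2, a methylcytosine oxidase gene, the reads were 18, 15 and 5, a ratio of 1.10 (0.353 to 3.07) that lay near 1. Sf3b1, a splicing factor gene, held 43, 70 and 26 in exon 14, at 0.563 with an interval from 0.322 to 1.01.

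Single-copy members with 5 to 50 input reads and virus ratios of 3.97 or more held few Ets-1 virus reads. These were 22 or fewer, apart from the Iapp region with 39. Prepl, a peptidase-like gene, held 22, 0 and 5 reads at its promoter, at least 6.72-fold higher than the floor of 3 reads in the control virus library. Slc38a2, an amino acid transporter gene, held 13, 0 and 5, or at least 3.97-fold higher, while Klf10, a zinc finger factor gene, held 7, 1 and 5, with an interval from 0.363 to 180.5 that spans 1. The region near Gm27940, which is repeated in other ways, held 36, 5 and 13 reads, a virus ratio of 6.60 (1.61 to 29.1). Pif1, a DNA helicase gene whose promoter had the most input reads of the single-copy protein-coding promoters with 5 to 50, held 92, 68 and 36 reads, a virus ratio of 1.24 (0.778 to 1.99).

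Reads of the 3 libraries ranked the members in a similar order. Across the 66 repeat-like members, which share sequence and loci, Spearman's rho was 0.961 between the precipitated libraries, 0.859 between input and Ets-1 virus and 0.868 between input and control virus. Across the 169 others it was 0.620, 0.697 and 0.711. In the 89 single-copy ones, rho was 0.699 between input and Ets-1 virus, 0.709 between input and control virus and 0.498 between the precipitated libraries. Of these 89, 22 were called in both lists, and a region called in 1 list alone tends to be higher there. That and the choice by input count can both shape the ranks, so these values cannot be set against each other. All rho values here are descriptions across regions, whose widths and local copy number all 3 libraries share.

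Every compared region was called in the Ets-1 virus list, the control virus list or both, so being called was not particular to the members. Of the 66 repeat-like members 62 were called in both lists, and of the 169 others 65 were in both (38.5%), 48 in the Ets-1 virus list alone and 56 in the control virus list alone. Of all compared regions, 6.13% were in both. By list, 66.9% of the 169 were called with the Ets-1 virus, against 43.6% of all regions, and 71.6% with the control virus, against 62.5%. As deposited by the authors, the peak fold had medians of 4.57 (Ets-1 virus list) and 4.55 (control virus list) at the repeat-like members, and 3.63 and 3.56 at the others. Many calls were weak by the deposited q-values. Among the others, 56 of 113 calls with the Ets-1 virus and 53 of 121 with the control virus passed a q of 0.05. Among the repeat-like members, 48 of 64 and 54 of 64 did.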

How the data were processed

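Ets-1 ChIP-seq and input chromatin of Min6 cells were described from a deposited table that compares regions and from 1 deposited peak list per precipitated library. The submitters' processing notes name build mm10, BWA 0.7.12, MACS2 2.1.0, Trimmomatic and FastQC; their settings and the part of the input in peak calling are not stated there. For each compared region the authors deposited read counts, RPM values (count plus 1 over the library total), ratios of RPM and their log2 values, per the file headers and values. In the peak lists the authors deposited a fold (ratio), −log10 p- and q-values and a score per peak, per the file headers; these only describe peaks within a list.

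Totals were recovered from counts and RPM. Most nonzero counts in the precipitated libraries were even (72.0% and 74.5%), so fragments (2 reads, rounded up) were the basis of the exact conditional binomial intervals of ratios. Intervals of shares are exact (Clopper-Pearson). In the input, 19.0% of nonzero counts were even over all regions and 63.0% over the members. Whether input reads were counted like those of the precipitated libraries was not tested, and the ratios to input assume that they were. A count of 0 was set to a floor of 3 reads in a ratio. Sequences came from the RefSeq GRCm38 assembly: 31-base words were counted on both strands, and tandem runs of units of 1 to 6 bases were searched. Scaffold regions, 353 in number, have no sequence here. A further kind of tandem repeat is not reported here by itself, and its members count among those with other short repeats. Nearest genes and classes are those of the files, with names from GENCODE M21 where the files gave none.

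Groups came from sample titles, with 1 library each. The members, gene lists and tests were chosen with earlier results of these data known. Named regions are every repeat-like member (satellite and scaffold ones partly by gene or scaffold), examples from the 20 other members with most input reads, from the 10 highest and 10 lowest between viruses among those with 10 or more precipitated reads, and from the 10 highest and lowest over input, and members at listed genes or at genes with 3 or more members; Brsk2 and Itga11 as a gene, Sf3b1, Klf10, Dnmt1, Dnmt3a, Tet2, Fbn1, Kcnq1 and the exons of Ets1 were added after their values were seen. Alternatives were an input threshold of 10 reads, a density of 10 reads per kb, chromosomes 1 to 19 and X, repeat limits of 20 and 100 reads, reads in place of fragments, totals without repeat-like members and a 1 kb promoter. The interval code was tested on simulated data. Versions were numba 0.67.0, scipy 1.17.1, pandas 2.3.3, numpy 2.4.6, matplotlib 3.10.9 and Python 3.11.15.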

Additional observations from a re-analysis of the deposited data

How the results depend on the processing

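No paired analysis was possible because no group had a replicate. Of the settings listed before these values were computed, chromosomes 1 to 19 and X gave a virus ratio of 0.792 in place of 0.863 for the 169 members with 5 to 50 input reads and a precipitated to input ratio of 5.16 in place of 5.44. With the repeat limit at 20 input reads the ratio to input was 5.81, the CpG density 2.03 per 100 bases in place of 1.92 and the GC share 47.2% in place of 46.4%, and 105 members in place of 66 were repeat-like; with it at 100, 42 were. Totals without the repeat-like members gave a ratio to input of 6.10. An input threshold of 10 reads gave a GC share of 46.0% and a share called in the control virus list of 78.6% in place of 71.6%, and a density of 10 reads per kb a GC share of 45.7%. Chosen after seeing the data were the median of members' ratios, which was 1.02 and for the repeat-like members 0.983 in place of 1.01, and the values without satellite, scaffold and ribosomal DNA members, which were 0.735 between the viruses, 4.82 to input and 47.4% GC. The direction of the summed ratio and of the median differ for the 169 members. Number of members, promoter share and share called in the Ets-1 virus list moved by less than their intervals, or by less than 1.5 times for the count, under the settings run. Depth limits the members near the threshold: a difference at 5 to 10 reads is seldom beyond counting error, and no library has a replicate.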
